A study of Mus musculus with 2 samples.

Results

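The proteases that cut extracellular matrix and their inhibitors were followed gene by gene through single-nucleus RNA-seq of inguinal white adipose tissue (iWAT). The set held every gene in the deposited tables whose symbol is Mmp, Adamts, Adamtsl or Timp followed by its number: 22 matrix metalloproteases (MMPs), 19 ADAMTS proteases, 5 ADAMTS-like genes (ADAMTSL) and 4 tissue inhibitors of metalloproteases (TIMPs). These were 50 of 31053 listed genes. Together they took 49373 unique molecular identifiers (UMIs, counted RNA molecules) in the nuclei kept here. 31 of the 50 reached 50 UMIs, 19 did not, and Mmp10 was at 0.

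MMPs are zinc-dependent proteases that cut collagens, elastin and other matrix proteins, and most are made as inactive proenzymes that are secreted or, in the membrane-type group, held at the cell surface. ADAMTS proteases carry thrombospondin repeats that bind matrix, and their roles include cutting the proteoglycans versican and aggrecan and trimming the ends of fibrillar procollagens. ADAMTSL proteins share those repeats but lack the protease domain and associate with microfibrils. TIMPs bind the catalytic site of MMPs, and TIMP3 also holds ADAMTS proteases in check. In fat, stromal cells are a known source of these enzymes, which remodel the matrix as adipocytes enlarge.

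The 2 libraries came from male C57BL/6 mice fed Western diet for 4 weeks, 1 per genotype, each from the pooled iWAT of 3 mice. Mice of most experiments were about 10 to 12 weeks old, and the age of these pooled mice was not stated separately. Lexis-AdKO mice carried floxed Lexis, a long noncoding RNA gene, with a Cre transgene driven by the Adipoq promoter, which acts in adipocytes. Lexis-AdWT mice were littermates that carried the same floxed Lexis alleles (fl/fl) without Cre, so that both groups shared the floxed alleles, the diet and the strain. With 1 library per genotype there was no replicate, no test between genotypes was possible, and every interval below is an exact 95% interval for counting error only. The labels and the file names disagree: the library labelled Lexis WT was deposited under names that read KO, and the reverse. Lexis has no row under that name, so the labels were not checked against it, and the libraries are called labelled WT and labelled KO throughout. Each direction between libraries depends on those labels, whereas the levels within a library do not.

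Of 5000 barcodes in each library, 3503 nuclei labelled WT and 2852 labelled KO were kept, with medians of 1195 and 3879 UMIs. The libraries shared 12 barcode sequences, 10 of them among the kept nuclei. Nuclei were clustered with the 50 genes left out of the variable genes, and clusters were named from marker lists. Adipose stem and progenitor cells (ASPC) numbered 299 nuclei labelled WT and 786 labelled KO, adipocytes 417 and 895, myeloid nuclei 334 and 815, endothelial nuclei 94 and 122, and lymphocytes 2008 and 102. Mural nuclei, the pericytes and smooth muscle of vessels, numbered 10 and 44, and the 52 myocyte nuclei were all labelled KO. The lymph node was to be removed at dissection, yet lymphocytes made up 57.3% of the nuclei labelled WT. Different clusters held a class in the 2 libraries: most ASPC labelled WT were in a cluster led by Spon2, Cthrc1 and Lox, and most ASPC labelled KO in clusters led by Gdf10 and Bmper or by Sema3e and Sntg1. Adipocytes had no shared cluster in this clustering: all 417 labelled WT were in a cluster with 5 labelled KO. The other 890 labelled KO were in a cluster with none labelled WT, so no adipocyte ratio was read within a cluster. Under anchor integration, an alternative clustering, adipocyte clusters held 316 nuclei labelled WT with 688 labelled KO, and 102 with 207. Levels within those clusters are not given here. Another 341 and 36 nuclei stayed unnamed. Among them was a cluster of 152 nuclei, all labelled WT and led by Ccl19 and Ltf, with Adamts10 at 308 CPM (counts per 1000000 UMIs of the group), Adamts5 at 270 CPM and Mmp14 at 190 CPM.

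The set was mainly stromal. In the library labelled KO, 16 of the 31 members with 50 UMIs (51.6%) were higher in ASPC than in any other class, in UMIs scaled to the total of the class (CPM), against 10.2% of 13346 genes with that depth. For 11 of them (35.5%), against 3.72% of all genes, the ASPC level was also at least 2 times the next class. These 11 were Mmp2, Mmp3, Mmp14, Mmp23, Mmp27, Adamts16, Adamtsl1, Adamtsl3, Adamtsl4, Timp1 and Timp2. A lead of at least 2 times in any class was found for 19 members (61.3%) against 28% of all genes. In the library labelled WT, 17 of 22 members (77.3%) were highest in ASPC, against 11.1%. That library was ranked over 5 classes, without mural and myocyte nuclei, whereas the library labelled KO was ranked with them. The shares of the 2 libraries are therefore not directly comparable. Adamts1, Adamts12 and Mmp11 were highest in ASPC labelled WT and in mural nuclei labelled KO.

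The rest of the set was spread over the other classes of the library labelled KO. Adamts5, Adamtsl2 and Mmp28 were highest in adipocytes, 3 members against 13.4% of all genes. Adamts9 and Timp4 were highest in endothelial nuclei, 2 members against 13.6%. Adamts1, Adamts12, Mmp11, Mmp15 and Timp3 were highest in mural nuclei, 5 members against 14%. Mmp12 was the single member highest in myeloid nuclei, where 15.1% of all genes peaked. Adamts6, Adamts14 and Mmp9 peaked in lymphocytes, 3 members against 22.5%, and Adamts3 alone in myocytes, against 11.2%. Some of these peaks rested on few counts: 5 UMIs for Mmp9 in lymphocytes, 6 for Adamts3 in myocytes, and 6 for Mmp11 and 5 for Mmp15 in mural nuclei. Over the 5 classes with enough nuclei in both libraries, 20 of 22 members (90.9%) peaked in the same class in both, against 56.6% of all genes. The exceptions were Adamts1 and Adamts5, both highest in ASPC in the library labelled WT.

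**Figure D1:**
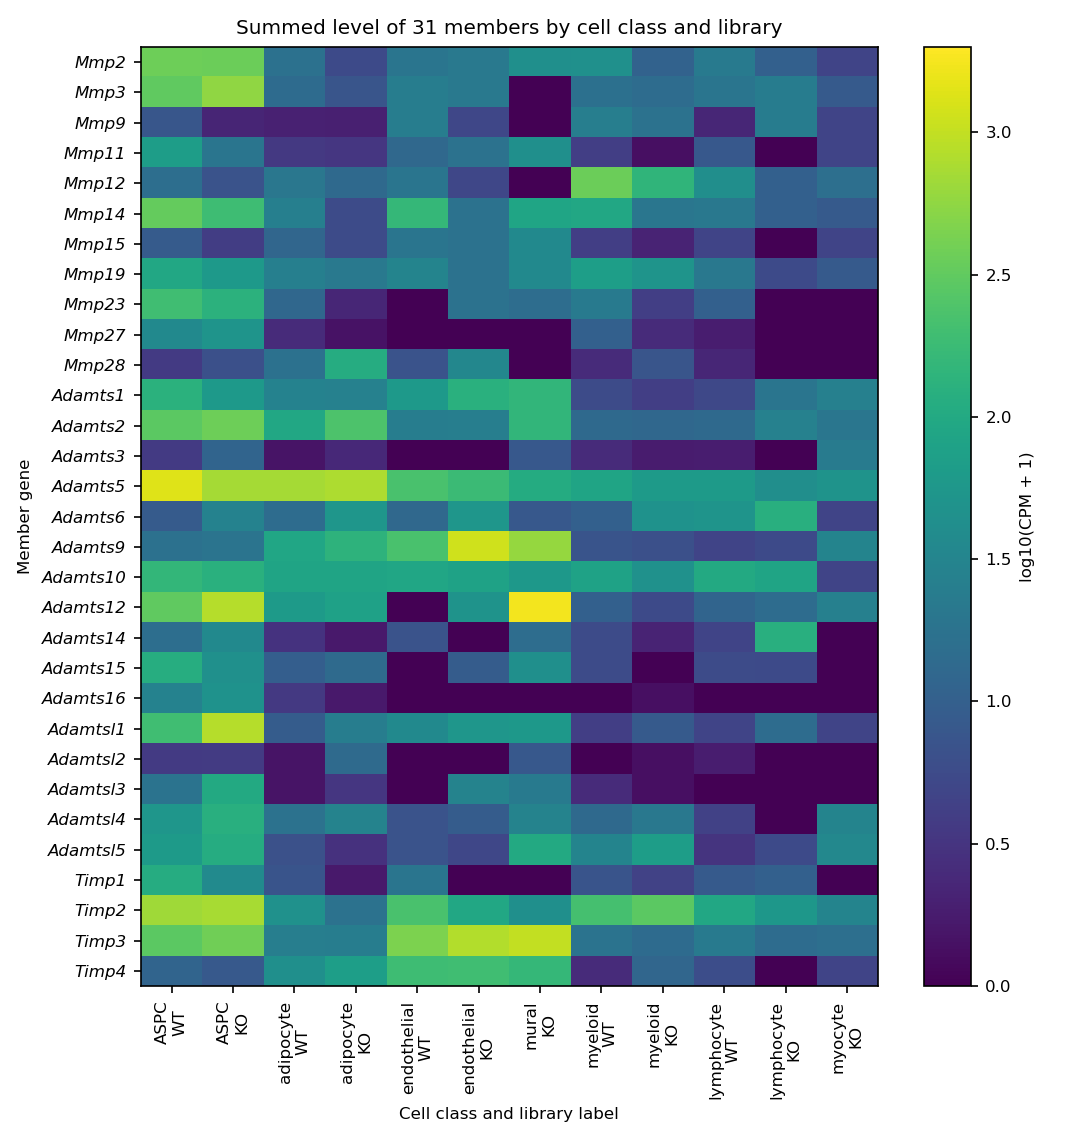
Heatmap of the level of each of the 31 members with at least 50 UMIs, as log10(CPM + 1), in each class and library; columns are classes of the library labelled WT or KO, and mural and myocyte nuclei are shown for the library labelled KO. Among members with at least 50 UMIs in a library, the ASPC columns hold the highest level of 17 of 22 labelled WT and 16 of 31 labelled KO. The ranking labelled WT leaves out mural and myocyte nuclei, and that labelled KO includes them.

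Summed over a family, MMP RNA in ASPC was 1435 CPM labelled WT and 1408 CPM labelled KO, compared with 146 and 170 CPM in adipocytes and 657 and 268 CPM in myeloid nuclei. ADAMTS RNA was 2466 and 2312 CPM in ASPC and 1115 and 1415 CPM in adipocytes, where Adamts5 gave most of it. ADAMTSL RNA in ASPC was 327 CPM labelled WT and 1186 CPM labelled KO. Adamtsl1 gave 2840 of the 3931 UMIs labelled KO, and its direction turned relative to genes of like intronic length (log2 ratio of 2.16 before and -0.19 after). TIMP RNA was 1093 and 1156 CPM in ASPC, 866 and 1110 CPM in endothelial nuclei and 119 and 110 CPM in adipocytes. Over the whole class, the totals for MMP, ADAMTS and TIMP RNA in ASPC were thus near each other in the 2 libraries, while single members within them differed in both directions. The ASPC of the 2 libraries lay mostly in different clusters. In the ASPC cluster with 294 nuclei labelled WT and 31 labelled KO, Timp2 was at 580 and 2427 CPM and Adamts5 at 1401 and 768 CPM.

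Free RNA from broken cells enters every droplet, so a stromal gene at a low level in another class can be that background. Lymphocytes, which are not a known source of Mmp2, held 21 CPM of it labelled WT and 9.18 CPM (2 UMIs) labelled KO. Adipocytes held 15.9 and 4.51 CPM of Mmp2, no more than the lymphocytes of the same library. The same was true of Mmp3, with 13.4 and 6.36 CPM in adipocytes and 18 and 23 CPM in lymphocytes, and of Timp2, with 45.8 and 16.3 CPM in adipocytes and 95.1 and 55.1 CPM in lymphocytes. It was not true of Mmp14 labelled WT, at 25.2 CPM in adipocytes and 20.1 CPM in lymphocytes. Labelled KO, Mmp14 was at 4.74 CPM in adipocytes and 9.18 CPM (2 UMIs) in lymphocytes. Myeloid nuclei held more Mmp14 than lymphocytes in both libraries, at 93.9 and 18.6 CPM. The lymphocyte values labelled KO rest on 2, 5 and 12 UMIs for Mmp2, Mmp3 and Timp2. The part of free RNA in the adipocyte and myeloid levels was not tested.

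Among MMPs, the gelatinase Mmp2, which cuts denatured and basement membrane collagen, stood at 367 CPM (277 UMIs) in ASPC labelled WT and 365 CPM (1209 UMIs) in ASPC labelled KO. The ratio of the library labelled KO to that labelled WT was 0.994 (0.872 to 1.14), and the ASPC level was 8.52 times the next class in the library labelled KO. Mmp14, the membrane-type protease that activates the Mmp2 proenzyme, was at 332 CPM (251 UMIs) and 189 CPM (628 UMIs), a ratio of 0.570 (0.492 to 0.663). These class values depend on which clusters make up the ASPC of each library. In this clustering a single ASPC cluster held at least 30 nuclei of each library (294 labelled WT and 31 labelled KO). There Mmp2 was at 364 CPM (322 to 411) and 863 CPM (664 to 1102) and Mmp14 at 337 CPM (296 to 382) and 391 CPM (262 to 562), so Mmp2 was not level and the intervals of Mmp14 overlapped. At resolution 0.2 an ASPC cluster held 298 and 414 nuclei, and under anchor integration others held 179 and 401, and 120 and 375. Levels in those are not given here, so each value for the shared ASPC cluster rests on 31 nuclei labelled KO. The other gelatinase, Mmp9, was sparse: in myeloid nuclei it had 16 UMIs (25 CPM) and 44 UMIs (16.7 CPM), and its ratio of 0.667 (0.369 to 1.27) did not separate the libraries.

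The stromelysin Mmp3, a broad protease that also activates other proMMPs, differed in the opposite direction from Mmp14 in ASPC. It was at 308 CPM (233 UMIs) labelled WT and 566 CPM (1877 UMIs) labelled KO, a ratio of 1.84 (1.60 to 2.11). In the ASPC cluster that both libraries shared it was at 307 and 337 CPM, with overlapping intervals. Mmp23, a small MMP held in the membrane by its N terminus, was at 193 and 131 CPM, a ratio of 0.679 (0.562 to 0.824), but its log2 ratio of -0.56 was 0.09 relative to genes of like intronic length, and in the shared cluster it was at 177 and 216 CPM, with overlapping intervals. Mmp11, or stromelysin 3, had the lowest ratio of the 24 members with 50 UMIs in ASPC, with 67.5 CPM (51 UMIs) and 18.1 CPM (60 UMIs) and a ratio of 0.268 (0.181 to 0.397). Mmp19 was at 95.3 and 58.2 CPM, a ratio of 0.611 (0.464 to 0.812). Mmp27 was at 35.7 CPM (27 UMIs) and 50.7 CPM (168 UMIs), and its interval of 0.940 to 2.21 included 1. Without the 3 nuclei with most UMIs of the gene in each library its ratio was above 2.

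Mmp12, the macrophage elastase, was the myeloid member of the set. Its level was 365 CPM (233 UMIs) in myeloid nuclei labelled WT and 144 CPM (379 UMIs) in those labelled KO, a ratio of 0.394 (0.334 to 0.466). Myeloid nuclei labelled WT lay mostly in 1 cluster, at 377 CPM (329 to 429), whereas those labelled KO lay mostly in a cluster of 271 nuclei at 344 CPM (307 to 384) and another of 524 nuclei at 8.29 CPM (4.53 to 13.9), which held no nuclei labelled WT. These are different clusters in this clustering, and their part in the class ratio was not tested. The cluster of 524 nuclei was led by genes that include Ms4a4a and Vsig4. Under anchor integration a myeloid cluster led by those genes held 247 nuclei labelled WT and 492 labelled KO. The RNA was uneven, since 159 of the 379 UMIs labelled KO came from 3 of the 52 nuclei with any Mmp12. With each nucleus thinned to 1000 UMIs, 13.7% (9.75 to 18.6) of myeloid nuclei labelled WT and 3.39% (2.23 to 4.93) of those labelled KO had a Mmp12 UMI, and without thinning 14.4% and 6.38%. In lymphocytes labelled WT, which should lack the gene, the thinned share was 3.6%. The median depth before thinning was 1447.5 UMIs in myeloid nuclei labelled WT, 2863 in those labelled KO and 998.5 in lymphocytes labelled WT.

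Mmp28, or epilysin, was the MMP that peaked in adipocytes in the library labelled KO. It had 31 UMIs (15.9 CPM) in adipocytes labelled WT and 942 UMIs (109 CPM) in those labelled KO, a ratio of 6.83 (4.78 to 10.1). In adipocytes labelled WT, Mmp19 (25.7 CPM), Mmp14 (25.2 CPM) and Mmp12 (19.5 CPM) were higher, and Mmp28 was too sparse to rank over classes. In the library labelled KO the adipocyte level of Mmp28 was 3.33 times the next class. The share of adipocyte nuclei with a Mmp28 UMI was 2.21% (1.02 to 4.16) and 9.21% (7.39 to 11.3) after thinning to 1000 UMIs and 7.19% and 46.5% before, at median depths of 3643 and 7852 UMIs. Lymphocytes labelled WT had a thinned share of 0.2%. The summed level of 11 adipocyte markers in adipocytes was also higher in the library labelled KO, at 21924 CPM compared with 9951 CPM, and its part in the Mmp28 difference was not tested.

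Mmp12, Mmp3 and Mmp27 lie in a single array of 9 MMP genes that spans 427.071 kb of chromosome 9, at chr9:7272514-7699585 in RefSeq on GRCm38.p6 (mm10). Its order is Mmp13, Mmp12, Mmp1b, Mmp3, Mmp10, Mmp8, Mmp27, Mmp20 and Mmp7. Over both libraries Mmp12 had 922 UMIs, Mmp3 2331 and Mmp27 220, while the other members of the array had 0 to 12. Mmp12 starts 71.883 kb and Mmp3 173.308 kb from the start of Mmp13, and they were detected in different classes: Mmp12 had 233 and 379 UMIs in myeloid nuclei and 11 and 20 in ASPC, and Mmp3 had 10 and 36 in myeloid nuclei and 233 and 1877 in ASPC.

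**Figure D2:**
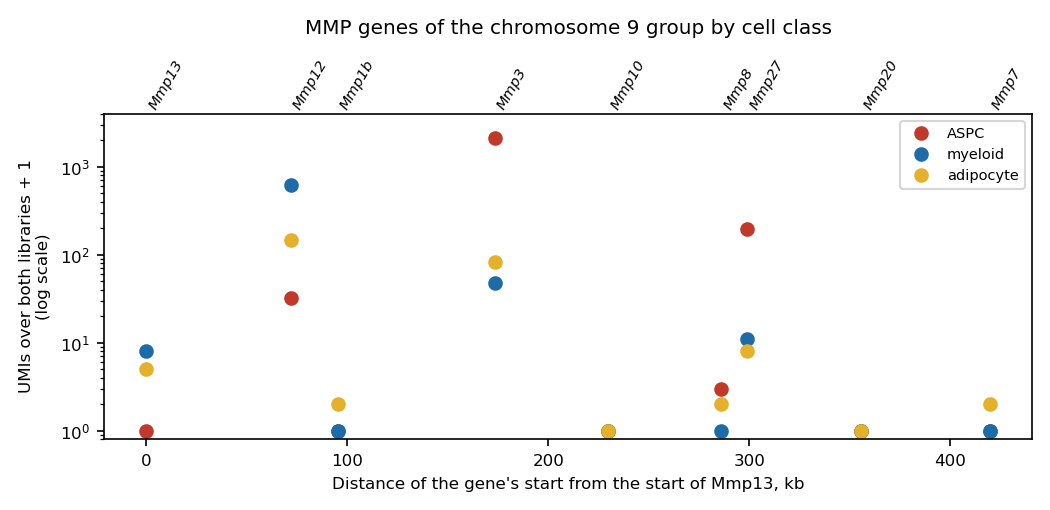
UMIs over both libraries plus 1, on a log axis, of the 9 genes of the chromosome 9 array in ASPC, myeloid and adipocyte nuclei, plotted by distance in kb of each gene's start from the start of Mmp13. Mmp12 is highest in myeloid nuclei and Mmp3 and Mmp27 in ASPC, and the other 6 genes have few UMIs or none.

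The 250 bases before the start of the 3 detected genes are printed below because these neighbours differ in the class that holds their RNA. Those of Mmp28, which lies on another chromosome and peaked in adipocytes labelled KO, are printed with them. RefSeq gives Mmp12 2 starts. Sequences run 5′ to 3′ on the gene's strand, and capitals mark matches to the letters TGANTCA of the AP-1 motif, the letters TATAAA of the promoter element that carries their name, or the letters AGGAAGT of the ETS motif, each searched on both strands.
Mmp12, chr9:7344147-7344396, plus strand: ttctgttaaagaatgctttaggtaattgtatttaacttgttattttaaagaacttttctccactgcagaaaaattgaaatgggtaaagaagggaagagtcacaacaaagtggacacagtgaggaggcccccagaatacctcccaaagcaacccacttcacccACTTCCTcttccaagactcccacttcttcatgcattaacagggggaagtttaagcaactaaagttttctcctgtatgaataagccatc
Mmp12, chr9:7347124-7347373, plus strand: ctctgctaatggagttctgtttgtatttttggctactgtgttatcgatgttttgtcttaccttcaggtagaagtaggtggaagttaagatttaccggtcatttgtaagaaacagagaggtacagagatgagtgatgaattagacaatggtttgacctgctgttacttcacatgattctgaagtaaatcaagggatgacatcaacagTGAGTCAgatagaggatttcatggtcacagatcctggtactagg
Mmp3, chr9:7445572-7445821, plus strand: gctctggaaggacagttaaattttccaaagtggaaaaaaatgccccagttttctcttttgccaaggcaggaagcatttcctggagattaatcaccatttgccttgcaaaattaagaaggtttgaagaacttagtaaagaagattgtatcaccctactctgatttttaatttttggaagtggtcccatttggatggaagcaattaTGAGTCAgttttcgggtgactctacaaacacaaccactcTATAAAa
Mmp27, chr9:7571146-7571395, plus strand: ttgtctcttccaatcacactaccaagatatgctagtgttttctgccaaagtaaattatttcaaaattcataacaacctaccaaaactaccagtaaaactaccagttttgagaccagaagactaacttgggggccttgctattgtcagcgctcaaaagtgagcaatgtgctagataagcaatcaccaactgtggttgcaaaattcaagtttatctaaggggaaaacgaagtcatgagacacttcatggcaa
Mmp28, chr11:83463041-83463290, minus strand: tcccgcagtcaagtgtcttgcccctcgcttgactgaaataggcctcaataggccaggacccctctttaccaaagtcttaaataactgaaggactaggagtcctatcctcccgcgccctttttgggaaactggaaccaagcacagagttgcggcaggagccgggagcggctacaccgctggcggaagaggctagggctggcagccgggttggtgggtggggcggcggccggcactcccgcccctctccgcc

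An AP-1 match lay 46 bases before the start of Mmp3 and 44 bases before the second Mmp12 start, with the same letters, TGAGTCA, and the upstream Mmp12 window held an ETS match on the opposite strand 88 bases before the start. The Mmp27 and Mmp28 windows held none of the 3 motifs. RefSeq windows were found for 35 of the 50 members, as 38 windows. AP-1 letters were in 7 of them, all in the chromosome 9 array (Mmp1b, Mmp3, Mmp7, Mmp10, Mmp12, Mmp13 and Mmp20), and in 6.75% of all 32851 windows of that length. TATAAA was in 9 member windows and 12.4% of all windows, and AGGAAGT in 6 and 7.69%. Matching letters are a description of the window, not a bound site. Mmp3, with the AP-1 letters, and Mmp27, without them, were both stromal in these nuclei.

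Among ADAMTS genes, Adamts5, an aggrecanase that also cuts versican, was the member with the most UMIs, 12245. It was shared by adipocytes and ASPC. In adipocytes it was at 724 CPM (1408 UMIs) labelled WT and 785 CPM (6789 UMIs) labelled KO, a ratio of 1.08 (1.02 to 1.15) whose direction turned with a total without mitochondrial genes and Malat1 (log2 ratio of -0.14). In ASPC it was at 1377 CPM (1040 UMIs) and 718 CPM (2382 UMIs), a ratio of 0.522 (0.485 to 0.562). After thinning to 1000 UMIs, 65.5% (59.4 to 71.3) of ASPC labelled WT and 43.8% (40.2 to 47.4) of ASPC labelled KO had an Adamts5 UMI, and before thinning 79.6% and 72.5%, at median depths of 1727 and 3485 UMIs. The thinned shares in adipocytes were 34.9% and 41%, and those in lymphocytes 4.90% and 5.62%. In the library labelled KO the adipocyte level of Adamts5 was 1.09 times the ASPC level. The lower level labelled KO was thus seen in ASPC and not in adipocytes, and it was also seen in the shared ASPC cluster, at 1401 CPM (1316 to 1490) and 768 CPM (582 to 996).

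Adamts1, another versican-cutting protease, lies 55.0 kb from Adamts5 on chromosome 16. In ASPC it was at 128 CPM (97 UMIs) labelled WT and 57.6 CPM (191 UMIs) labelled KO, a ratio of 0.449 (0.350 to 0.579). Without the 3 nuclei with most UMIs of the gene in each library its log2 ratio moved from -1.16 to -0.64. In adipocytes its ratio was 0.974 (0.722 to 1.33). Adamts15, the versicanase that neighbours Adamts8, was at 114 CPM (86 UMIs) and 43.7 CPM (145 UMIs) in ASPC, a ratio of 0.384 (0.292 to 0.508). Adamts4, another aggrecanase, had 48 UMIs in all and was too sparse to describe. Over the class, Adamts1, Adamts5 and Adamts15 were thus each lower in ASPC labelled KO. In the shared ASPC cluster Adamts1 was at 125 CPM (101 to 154) and 80.9 CPM (29.7 to 176) and Adamts15 at 120 CPM (95.7 to 148) and 53.9 CPM (14.7 to 138), both with overlapping intervals.

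Adamts2, which removes the N-terminal propeptide of fibrillar procollagens, was at 293 CPM (221 UMIs) and 373 CPM (1238 UMIs) in ASPC, a ratio of 1.28 (1.11 to 1.48). In adipocytes it was at 94.6 CPM (184 UMIs) and 236 CPM (2045 UMIs), a ratio of 2.50 (2.15 to 2.92). Relative to genes of like intronic length its log2 ratio went from 0.35 to -1.15 in ASPC and from 1.32 to 0.09 in adipocytes. Adamts14, from the same procollagen-trimming group, was at 14.6 CPM (11 UMIs) and 35.9 CPM (119 UMIs) in ASPC. Its level in lymphocytes labelled KO, 119 CPM, rested on 26 UMIs, all in a cluster of 59 nuclei led by the natural killer genes Ncr1, Klra8 and Gzma. Adamts3, the third of the group, had 66 UMIs in all.

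Adamts12 marked mural nuclei and part of the stroma. It was at 1748 CPM (245 UMIs) in mural nuclei labelled KO, 2.07 times the ASPC level, and 68.3% (51.9 to 81.9) of those 41 nuclei had a UMI after thinning to 1000 UMIs. In ASPC it was at 315 CPM (238 UMIs) labelled WT and 843 CPM (2796 UMIs) labelled KO, a ratio of 2.68 (2.34 to 3.07), with thinned shares of 24.9% (19.8 to 30.6) and 38.9% (35.4 to 42.5) and unthinned shares of 38.5% and 65.8%. Relative to genes of like intronic length its log2 ratio in ASPC was -0.92. Lymphocytes labelled WT had a thinned share of 0.899%. Adamts16 was at 46.7 CPM (155 UMIs) in ASPC labelled KO and 0.693 CPM (6 UMIs) in adipocytes, the widest lead of any member over its next class at 67.4 times. Adamts6 was at 7.94 CPM (6 UMIs) and 28.0 CPM (93 UMIs) in ASPC, a ratio of 3.53 (1.56 to 9.87), and was also higher in the library labelled KO in adipocytes (13.9 and 53.6 CPM), myeloid nuclei (9.39 and 47.1 CPM) and lymphocytes (50.3 and 119 CPM). Adamts6 has over 100 kb of intron, and relative to genes of like intronic length its log2 ratio went from 1.82 to 0.32 in ASPC, from 1.95 to 0.72 in adipocytes, from 2.33 to 0.28 in myeloid nuclei and from 1.25 to -0.46 in lymphocytes. Adamts10, which binds fibrillin microfibrils, was at 152 and 122 CPM in ASPC and between 46.3 and 100 CPM in adipocytes, myeloid nuclei and lymphocytes of both libraries.

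Adamts9, a widely conserved versican-cutting protease, was highest in endothelial nuclei, as was Timp4. It was at 227 CPM (38 UMIs) in endothelial nuclei labelled WT and 1143 CPM (280 UMIs) in those labelled KO, a ratio of 5.03 (3.58 to 7.26). The thinned share of endothelial nuclei with a UMI was 20.6% (11.5 to 32.7) and 49% (39 to 59.1), and the unthinned share 23.4% and 53.3%, at median depths of 1269.5 and 1644.5 UMIs. Lymphocytes labelled WT had a thinned share of 0.3%. Mural nuclei labelled KO held 606 CPM of Adamts9 (85 UMIs), of which 44 UMIs were in 3 nuclei. Adipocytes held 88.5 CPM (172 UMIs) and 135 CPM (1165 UMIs), a ratio of 1.52 (1.30 to 1.80), but its log2 ratio of 0.61 in adipocytes was -0.63 relative to genes of like intronic length. ASPC held 15.9 CPM (12 UMIs) and 17.5 CPM (58 UMIs). The log2 ratio of 0.14 in ASPC was 1.07 without the 3 nuclei with most UMIs of the gene in each library. Relative to genes of like intronic length it was -1.36. The summed level of 12 endothelial markers in endothelial nuclei was 5958 CPM labelled WT and 8615 CPM labelled KO, and its part in the Adamts9 difference was not tested.

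The ADAMTSL genes were mostly stromal, and their ratios were above 1 before any correction for intronic length. Relative to genes of like intronic length, the log2 ratio in ASPC went from 2.16 to -0.19 for Adamtsl1 and from 2.52 to 0.18 for Adamtsl3. Adamtsl1, or punctin, was at 192 CPM (145 UMIs) in ASPC labelled WT and 857 CPM (2840 UMIs) in ASPC labelled KO, a ratio of 4.46 (3.78 to 5.31). Its thinned share was 17.6% (13.2 to 22.8) and 49.4% (45.8 to 53.0), its unthinned share 30.1% and 77.6%, and lymphocytes labelled WT had a thinned share of 0.3%. In the shared ASPC cluster Adamtsl1 was at 193 CPM (163 to 228) and 256 CPM (154 to 400), and Adamts12 at 330 CPM (289 to 374) and 418 CPM (284 to 593), both with overlapping intervals. Adamtsl3 was at 17.2 CPM (13 UMIs) and 98.9 CPM (328 UMIs), a ratio of 5.75 (3.31 to 10.9). Adamtsl4, which binds fibrillin and is known from lens ligament disease, was at 53.0 CPM (40 UMIs) and 119 CPM (393 UMIs), a ratio of 2.24 (1.61 to 3.18). Adamtsl5 was at 62.2 and 109 CPM in ASPC, a ratio of 1.75 (1.29 to 2.42), and at 29.7 and 67.2 CPM in myeloid nuclei. Adamtsl2, another microfibril-binding protein, had 1 UMI in adipocytes labelled WT and 110 UMIs (12.7 CPM) in those labelled KO, and with so few counts its ratio of 24.7 had an interval of 4.34 to 985.

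Of the inhibitors, Timp2, which also takes part in the activation of Mmp2 by Mmp14, was at 678 CPM (512 UMIs) and 727 CPM (2412 UMIs) in ASPC, a ratio of 1.07 (0.975 to 1.18) whose interval included 1. In myeloid nuclei Timp2 was at 210 CPM (134 UMIs) and 290 CPM (763 UMIs), a ratio of 1.38 (1.15 to 1.67) whose log2 value of 0.47 was -0.06 relative to genes of like intronic length, and here it stood above the 95.1 and 55.1 CPM of lymphocytes. In endothelial nuclei it was at 221 CPM (37 UMIs) and 93.9 CPM (23 UMIs), a ratio of 0.425 (0.241 to 0.734). In the ASPC cluster that both libraries shared, Timp2 was at 580 CPM (526 to 639) labelled WT and 2427 CPM (2085 to 2808; 180 UMIs in 31 nuclei) labelled KO, so its level value over the class did not hold within that cluster.

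Timp3, the matrix-bound inhibitor, was vascular and stromal. It was at 999 CPM (140 UMIs) in mural nuclei labelled KO, at 442 CPM (74 UMIs) and 820 CPM (201 UMIs) in endothelial nuclei, a ratio of 1.85 (1.41 to 2.46), and at 295 CPM (223 UMIs) and 384 CPM (1273 UMIs) in ASPC, a ratio of 1.30 (1.13 to 1.51). In the shared ASPC cluster Timp3 was at 236 CPM (202 to 275) and 539 CPM (385 to 734), and over the class its log2 ratio of 0.38 was 0.06 relative to genes of like intronic length. Timp4 was at 185 CPM (31 UMIs) and 196 CPM (48 UMIs) in endothelial nuclei, a ratio of 1.06 (0.659 to 1.72), and at 42.7 CPM (83 UMIs) and 69.0 CPM (597 UMIs) in adipocytes, a ratio of 1.62 (1.28 to 2.06). Timp1, an inducible inhibitor, was at 110 CPM (83 UMIs) and 37.1 CPM (123 UMIs) in ASPC, a ratio of 0.338 (0.254 to 0.452), but 57 of the 83 UMIs labelled WT lay in 3 nuclei. Without the 3 nuclei with most Timp1 UMIs in each library the log2 ratio moved from -1.57 to -0.22. The 4 TIMPs had 3 leading classes in the library labelled KO: ASPC for Timp1 and Timp2, mural nuclei for Timp3 and endothelial nuclei for Timp4. Timp1, Timp3 and Timp4 lie within Syn1, Syn3 and Syn2 loci, so reads of a host gene and its TIMP could be told apart only by strand.

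In the shared ASPC cluster, with 31 nuclei labelled KO, the intervals of the 2 libraries did not overlap for Mmp2, Timp2, Timp3 and Adamts2 (282 and 620 CPM), all higher labelled KO, or for Adamts5, Adamts10 (150 CPM labelled WT and 2 UMIs labelled KO) and Timp1 (109 CPM and 1 UMI), all lower. They overlapped for each of the other members compared in ASPC. For Timp1, this cluster held 78 of the 83 UMIs in ASPC labelled WT. As described above, most of the Timp1 UMIs in ASPC labelled WT lay in a few nuclei. The Timp1 difference within the cluster can thus rest on those nuclei, and it was not tested without them.

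Counted over the set, ratios of 2 or more were about as frequent as among all genes, or less so, and ratios of 0.5 or less were somewhat more frequent, on few genes. In ASPC 6 of 24 members (25%) had a ratio of at least 2 (Adamts6, Adamts12, Adamts14, Adamtsl1, Adamtsl3 and Adamtsl4), against 24.9% of all 9274 genes with that depth. A ratio of at most 0.5 was found for 4 of 24 (16.7%), Mmp11, Timp1, Adamts1 and Adamts15, against 8.86%. Timp1 and Adamts1 were above 0.5 without the 3 nuclei with most UMIs of the gene in each library. In adipocytes 5 of 21 (23.8%) were at 2 or more (Mmp28, Adamts2, Adamts6, Adamtsl1 and Adamtsl2) against 26%, and 5 of 21 at 0.5 or less (Mmp2, Mmp3, Mmp14, Mmp15 and Timp2) against 17.6%. Of these, Mmp3 turned from a log2 ratio of -1.07 to 0.48 without doublet removal and was at -0.63 relative to genes of like intronic length. The summed level of 11 ASPC markers in adipocytes was also lower in the library labelled KO, at 982 CPM compared with 1837 CPM, and its part in the lower values was not tested. By their leading class 4 of the 5 lower members were stromal genes. The smallest ratio in adipocytes was that of Mmp14, at 25.2 CPM (49 UMIs) and 4.74 CPM (41 UMIs), with 0.188 (0.121 to 0.291). The ratio there was 0.283 (0.172 to 0.469) for Mmp2 and 0.356 (0.271 to 0.470) for Timp2. In myeloid nuclei 2 of 11 (18.2%), Adamts6 and Adamtsl5, were at 2 or more against 24.3%, and 3 of 11 (27.3%), Mmp2, Mmp12 and Mmp14, at 0.5 or less against 13.1%. Mmp14 was at 93.9 CPM (60 UMIs) and 18.6 CPM (49 UMIs) in myeloid nuclei, a ratio of 0.198 (0.133 to 0.294). Mmp2 was at 43.8 CPM (28 UMIs) and 9.87 CPM (26 UMIs) there, a ratio of 0.225 (0.127 to 0.398). In myeloid nuclei ASPC markers summed to 1717 CPM labelled WT and 1242 CPM labelled KO. Their part in the Mmp2 and Mmp14 values there was not tested.

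In endothelial nuclei Adamts9 was the single member of 5 at 2 or more, against 32.4% of all genes, and Timp2 the single one at 0.5 or less, against 16%. In lymphocytes Adamts6 was the single member of 8 at 2 or more, against 16.1%, though its log2 ratio there was -0.46 relative to genes of like intronic length, and 3 (Mmp2, Mmp12 and Mmp14) were at 0.5 or less, against 20.8%. The lymphocyte values labelled KO rested on 2 UMIs for each of those 3 genes.

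**Figure D3:**
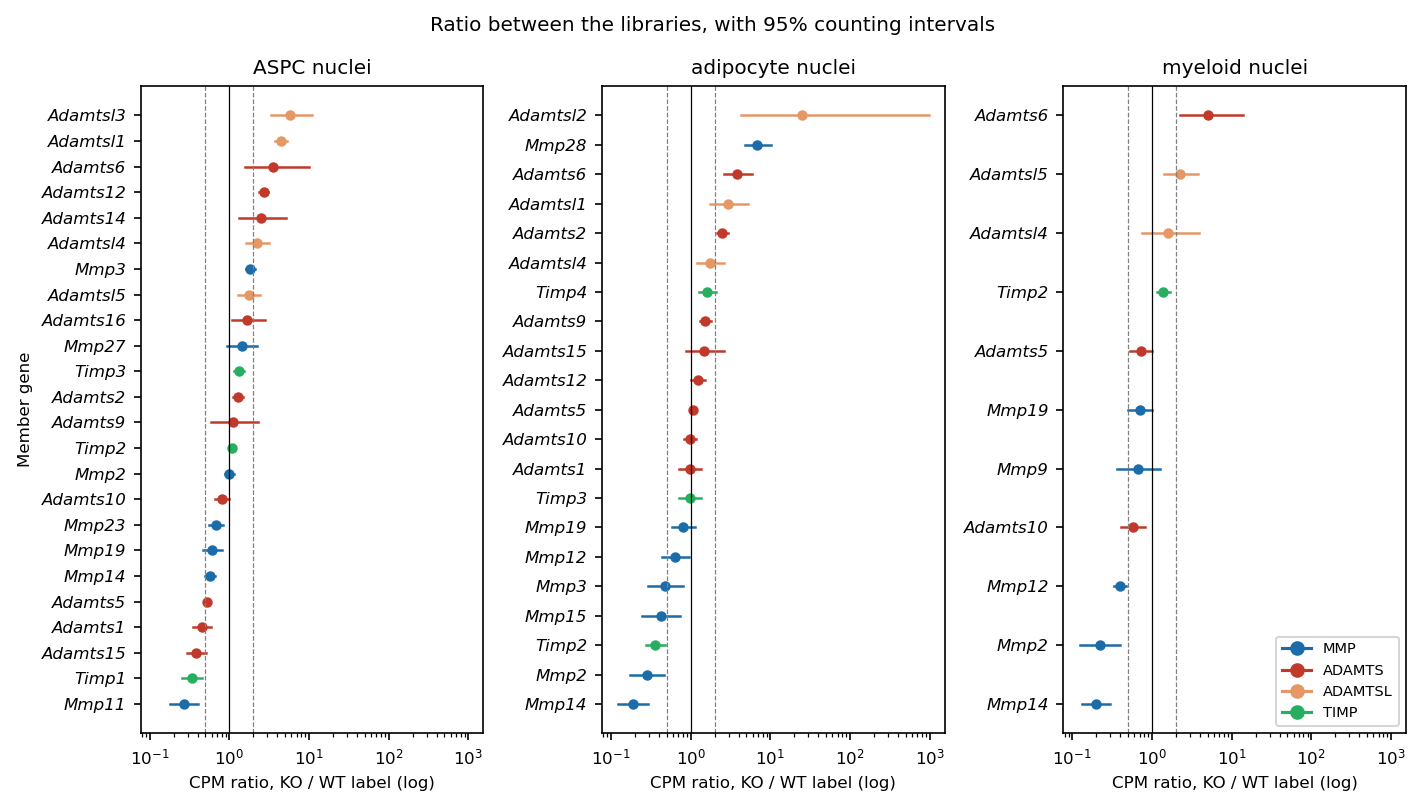
Ratio of CPM in the library labelled KO to CPM in the library labelled WT, on a log axis, for each member with at least 50 UMIs in ASPC, adipocyte and myeloid nuclei; points are ratios, bars are exact 95% intervals for counting error, and lines mark equality and the ratios 0.5 and 2. Adamtsl3 and Adamtsl1 are highest and Mmp11 lowest in ASPC, and Adamtsl2 and Mmp28 are highest and Mmp14 lowest in adipocytes.

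The ratio between libraries was higher for longer genes, across all genes. In ASPC the median log2 ratio was -0.49 for genes with up to 10 kb of intron and 1.58 for those above 100 kb, and in adipocytes -0.72 and 1.44. Over the 4 bins in ASPC the medians of all genes were -0.49, 0.05, 0.62 and 1.58, and those of the members -0.56 (9 members), -0.63 (6), 0.70 (2) and 1.42 (7). Adamts2, Adamts6, Adamts12, Adamts16, Adamtsl1 and Adamtsl3 each have over 100 kb of intron. Relative to genes of like intronic length, in 20 finer bins, the log2 ratio in ASPC was -0.19 for Adamtsl1, -0.92 for Adamts12, -1.15 for Adamts2 and 0.18 for Adamtsl3, so none of these 4 stood above its length class by a factor of 2. The short genes Mmp3 (1.22), Adamtsl4 (1.51) and Adamtsl5 (1.36) stood further above theirs. In adipocytes Mmp28 was at 2.98, Adamtsl2 at 4.83 and Timp4 at 1.40, and Adamts2 was at 0.09. In endothelial nuclei Adamts9 was at 1.22.

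After that correction 3 of 24 members in ASPC (Mmp3, Adamtsl4 and Adamtsl5) were at a ratio of 2 or more, against 14.4% of all genes, and 6 of 24 at 0.5 or less, against 9.39%. The 6 were Mmp11, Timp1, Adamts2, Adamts5, Adamts9 and Adamts15. In adipocytes 4 of 21 were at 2 or more against 18.9%, and 5 of 21 at 0.5 or less against 12%. In myeloid nuclei 2 of 11 were at 2 or more against 16%, and 3 of 11 at 0.5 or less against 11.1%. Whether intronic reads were counted is not given in the sources used here, and the part of gene length in any difference between libraries was not tested.

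**Figure D4:**
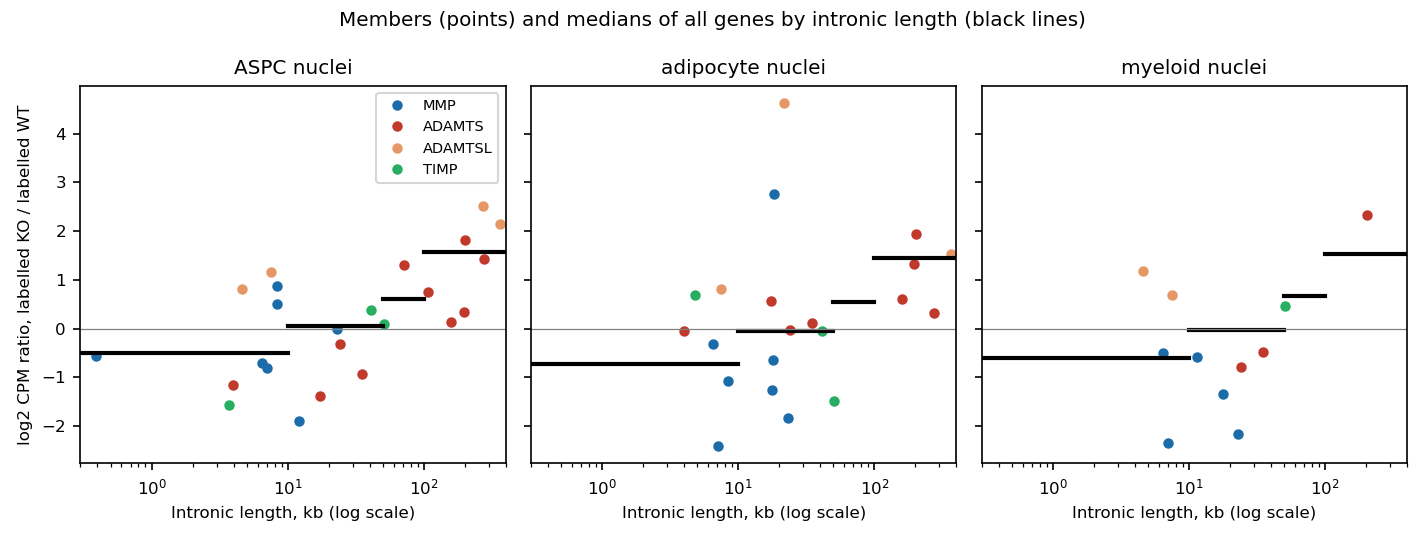
Log2 ratio of CPM (labelled KO over labelled WT) of each member against its intronic length in kb, on a log axis, in ASPC, adipocyte and myeloid nuclei; black lines are the medians of all genes in 4 bins of intronic length. In ASPC the line climbs from -0.49 to 1.58, and the members above 100 kb (7 genes) have a median of 1.42.

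Within ASPC labelled KO, part of the set differed between groups of nuclei. Reclustering gave 3 groups: 402 nuclei with all 8 markers of an interstitial progenitor list (Pi16, Dpp4 and others), 268 with 5 of 8 markers of a committed preadipocyte list (Icam1, Pparg, Ggt5, Col4a1 and Col15a1) and 116 with all 6 markers of a regulatory-type stromal list (F3, Gdf10, Fmo2 and others). They are called interstitial progenitor-like, committed preadipocyte-like and regulatory-like here. Of 24 members, 7 were highest in the interstitial progenitor-like group (29.2%, against 42.7% of all genes), 8 in the committed preadipocyte-like group (33.3%, against 31.2%) and 9 in the regulatory-like group (37.5%, against 26.1%). A level at least 2 times the next group was found for 9 members (37.5%), against 13.9%. These 9 were Mmp2, Mmp11, Mmp23, Timp1, Timp2, Adamts6, Adamts12, Adamts14 and Adamts16. For the other members the lead over the next group was smaller. Mmp11 rested on few counts, with 13 UMIs in the interstitial progenitor-like, 37 in the committed preadipocyte-like and 10 in the regulatory-like group.

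Mmp2, its activator Mmp14 and the inhibitors Timp1 and Timp2 had the same leading group. Timp2 was at 1739 CPM there, compared with 487 CPM in the interstitial progenitor-like and 317 CPM in the committed preadipocyte-like group. Mmp2 was at 708 CPM, compared with 239 and 273 CPM, and Mmp14 at 306 CPM, compared with 87.7 and 222 CPM. Timp1 was at 106 CPM (85 UMIs), compared with 6.16 CPM (8 UMIs) and 24.7 CPM (30 UMIs), and Mmp23 at 233 CPM, compared with 112 and 84.8 CPM. All 4, and Mmp23, were thus highest in the same 116 nuclei, whose median depth of 5889 UMIs was above the 2812.5 and 3922.5 UMIs of the others.

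The committed preadipocyte-like group led for Adamts12, at 1625 CPM (1974 UMIs) compared with 510 UMIs in the interstitial progenitor-like group and 389 CPM (312 UMIs) in the regulatory-like group, and for Mmp3, at 988 CPM compared with 122 CPM in the interstitial progenitor-like and 646 CPM in the regulatory-like group. Timp3 was at 545 CPM there, compared with 210 and 422 CPM. The interstitial progenitor-like group led for Adamtsl1, at 1165 CPM compared with 574 and 784 CPM, for Adamts5, at 868 CPM compared with 693 and 514 CPM, and for Adamtsl4, at 193 CPM compared with 43.6 and 111 CPM. Adamts16 was at 108 CPM (140 UMIs) there, with 2 UMIs in the committed preadipocyte-like and 13 UMIs in the regulatory-like group. Mmp27 was at 70.8 CPM (92 UMIs) there, compared with 49.4 CPM (60 UMIs) and 16 UMIs. The 2 stromal neighbours of the chromosome 9 array, Mmp3 and Mmp27, peaked in different groups of ASPC, though for Mmp27 the intervals of the interstitial progenitor-like (57.1 to 86.8) and committed preadipocyte-like (37.7 to 63.6) groups overlapped.

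In myeloid nuclei labelled KO, Mmp12 was concentrated in 87 nuclei with 4 of 6 markers of a lipid-associated macrophage list (Trem2, Lpl, Gpnmb and Atp6v0d2). It stood at 828 CPM (296 UMIs) there and at 126 CPM (64 UMIs) in the next group of 159 unnamed nuclei, while the 2 resident macrophage-like groups held 4.98 CPM (5 UMIs) and 15.8 CPM (10 UMIs). As described above, a large part of the Mmp12 UMIs labelled KO came from a few nuclei, so the highest level can rest on few nuclei. Mmp19 had the same leading group, at 193 CPM (69 UMIs), compared with 39.2 CPM (20 UMIs) in the next of the larger groups. Timp2 and Adamtsl5 led instead in the resident macrophage-like group of 265 nuclei, at 423 CPM (425 UMIs) and 129 CPM (130 UMIs), and Timp2 was at 193 CPM (69 UMIs) in the Mmp12-rich group. Adamts6 was at 190 CPM (12 UMIs) in 22 dendritic-like nuclei.

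**Figure D5:**
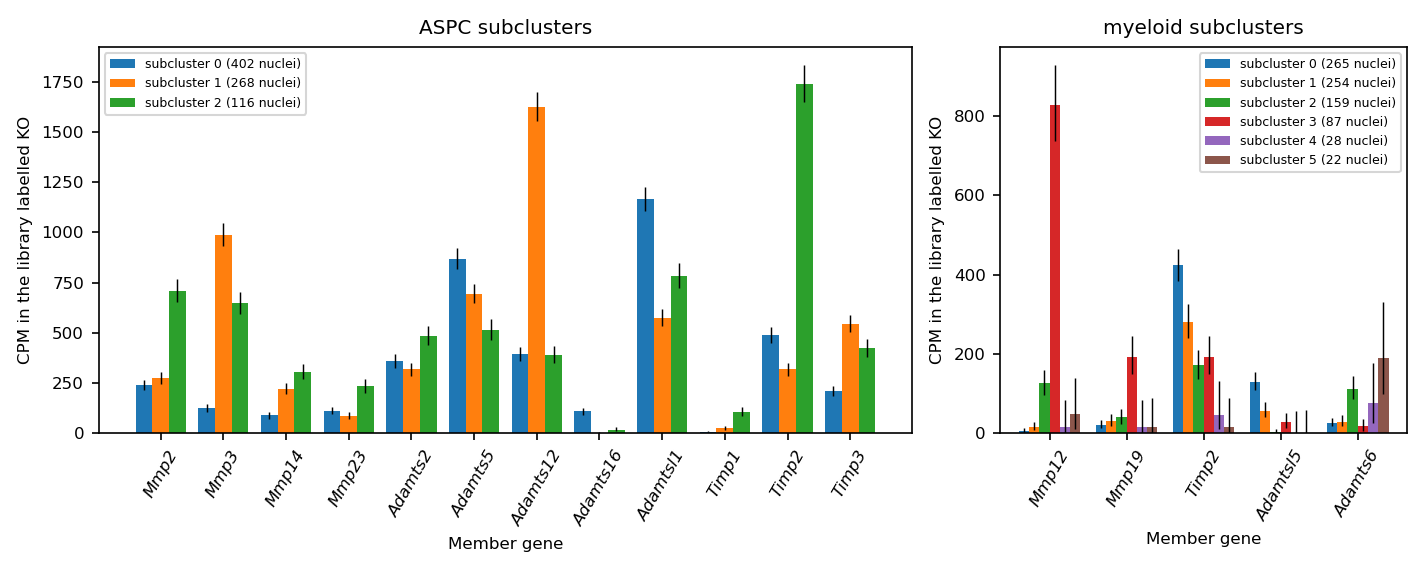
Levels in CPM of members in the 3 ASPC subclusters and 6 myeloid subclusters of the library labelled KO, with exact 95% Poisson intervals; ASPC subclusters 0, 1 and 2 are the interstitial progenitor-like, committed preadipocyte-like and regulatory-like groups, and myeloid subcluster 3 is the lipid-associated macrophage-like one. Timp2, Mmp2 and Mmp14 are highest in the regulatory-like ASPC, Mmp3 and Adamts12 in the committed preadipocyte-like ASPC, and Mmp12 in myeloid subcluster 3.

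Other genes of matrix turnover were read from lists. Their ASPC ratios are over the whole class, and the ASPC of the 2 libraries lay mostly in different clusters. Levels of these genes in the shared ASPC cluster are not given here. Of 17 pericellular partners and regulators, 13 had 50 UMIs in ASPC, with 3 at a ratio of 2 or more (against 24.9% of all genes) and 1 at 0.5 or less (against 8.86%). Reck, a membrane-anchored MMP inhibitor, was at 46.3 CPM (35 UMIs) labelled WT and 149 CPM (493 UMIs) labelled KO, a ratio of 3.21 (2.28 to 4.66). Its log2 ratio of 1.68 was 1.03 relative to genes of like intronic length. Of 9 ADAM proteases in ASPC, 2 were at 2 or more and 1 at 0.5 or less, against the same shares. Adam12, a disintegrin protease of developing mesenchyme, was at 80.7 CPM (157 UMIs) and 480 CPM (4150 UMIs) in adipocytes, and its log2 ratio of 2.57 was 0.50 after the correction for intronic length. In myeloid nuclei 3 of 8 ADAM proteases were at 2 or more (against 24.3%) and 2 at 0.5 or less (against 13.1%), Adam8 among the latter at 180 and 63.8 CPM. In adipocytes 3 of 10 were at 2 or more (against 26%) and 2 at 0.5 or less (against 17.6%). After the correction for intronic length the ADAM proteases at 2 or more were 1 in ASPC, 1 in myeloid nuclei and 0 in adipocytes, and those at 0.5 or less 1, 2 and 4.

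Of 15 matrix substrates with 50 UMIs in ASPC, 2 were at a ratio of 2 or more (against 24.9%) and 3 at 0.5 or less (against 8.86%). Over the whole class, Eln, the elastin gene, was at 1017 CPM (768 UMIs) and 241 CPM (799 UMIs), a ratio of 0.237 (0.214 to 0.262). Thbs1, a matrix glycoprotein, was at 102 CPM (77 UMIs) and 20.5 CPM (68 UMIs). Neither was compared within the shared ASPC cluster. Vcan, the versican substrate of Adamts1, Adamts5, Adamts9 and Adamts15, was at 297 and 327 CPM, a ratio of 1.10 (0.953 to 1.28) whose interval included 1. Its log2 ratio of 0.14 turned to -0.52 relative to genes of like intronic length. In adipocytes none of 15 substrates was at 2 or more, against 26%, and 6 were at 0.5 or less (Vcan, Lum, Fn1, Fbn1, Eln and Thbs1), against 17.6%. The summed ASPC markers in adipocytes were also lower in the library labelled KO, at 1837 CPM labelled WT and 982 CPM labelled KO. Lum and Fbn1 are themselves in that marker list, so the sum is not independent of these genes. The part of the ASPC markers was not tested. In myeloid nuclei 1 of 8 substrates was at 2 or more, against 24.3%, and 2 at 0.5 or less, against 13.1%. Of 6 cathepsins, lysosomal proteases of another class, 1 in each of ASPC, adipocytes and myeloid nuclei was at 0.5 or less (against 8.86%, 17.6% and 13.1% of all genes) and none at 2 or more (against 24.9%, 26% and 24.3%).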

How the data were processed

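Single-nucleus counts were deposited per library as matrices of whole-number UMI counts, which the authors made with Cell Ranger 6.1.1 (file header) against mm10 (submitters' processing notes, which also name Seurat 4). Whether intronic reads were counted is not given in the sources used here. The values are raw counts, not normalized. No columns of other samples were present.

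Nuclei with at least 500 genes and at most 5% mitochondrial UMIs were kept. Scrublet (scanpy 1.11.5) removed 92 doublets from the library labelled KO. Its automatic call marked 0 of 3649 nuclei labelled WT and was taken to have failed, so the 146 highest-scoring nuclei (4%) were removed. Both libraries were clustered together in Seurat 5.3.0 under R 4.3.3 (2000 variable genes without the 50 members, 20 components, resolution 0.5). A cluster was named where at least 3 markers of a list were in at least 5% of its nuclei and at least 2 times higher than in the other clusters, with at least 3 more such markers than any other list. Counts were summed per class and library, and CPM is relative to all UMIs of the class (755397 and 3315667 in ASPC, 1944364 and 8652942 in adipocytes, 639060 and 2635056 in myeloid nuclei, 167342 and 245035 in endothelial nuclei, labelled WT and KO). Intervals are exact Poisson for levels, exact conditional binomial for ratios and Clopper-Pearson for shares, at 95%, and cover counting error only. No p-value was computed. A gene was compared where it had at least 50 UMIs over both libraries in the class. Thinning drew 1000 UMIs from each nucleus and left out shallower nuclei. The correction for intronic length subtracts the median log2 ratio of genes in the same of 20 length bins. The interval and ratio code was tested on simulated data.

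Named members were those with at least 50 UMIs in a class. Full values were planned for the 10 highest levels and the 3 largest and smallest ratios per class. They were also planned for Timp1 to Timp4, Mmp2, Mmp9, Mmp12, Mmp14, Adamts1, Adamts5 and Adamts9. Some of these values are given only in part. The members, marker lists and gene lists were chosen with earlier results of these data known. Alternatives tried were TMM scaling (edgeR 4.0.16), a total without mitochondrial genes and Malat1, the intronic correction, no doublet removal, a minimum of 1000 genes, anchor integration, resolution 0.2, a minimum of 20 counts and leaving out the 3 nuclei with most UMIs of a gene.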

Additional observations from a re-analysis of the deposited data

How the results depend on the processing

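Under the correction for intronic length the log2 ratio turned negative for Adamtsl1 in ASPC (-0.19), Adamts12 in ASPC (-0.92) and Adamtsl1 in adipocytes (-0.53), as it did for Adamts6 in lymphocytes (-0.46), and the members at a ratio of 2 or more in ASPC went from 6 to 3. Of members with a ratio between 0.5 and 2, it also turned the sign of Adamts2 (-1.15), Adamts9 (-1.36), Adamts16 (-0.22), Timp2 (-0.32) and Mmp23 (0.09) in ASPC, of Adamts9 (-0.63), Adamts12 (-1.76), Adamts5 (-0.03), Mmp19 (0.23) and Adamts1 (0.65) in adipocytes and of Timp2 (-0.06) in myeloid nuclei. Without doublet removal Mmp3 in adipocytes turned positive (0.48), the cause of which was not tested. With a minimum of 20 counts, which adds members to those compared, 10 members in ASPC and 4 in myeloid nuclei were at 2 or more, and with a total without mitochondrial genes and Malat1 1 was in myeloid nuclei, where the cause was not tested. That total moved the median log2 ratio of all genes from 0.13 to -0.13 in ASPC, from -0.005 to -0.26 in adipocytes and from 0.07 to -0.13 in myeloid nuclei. Leaving out the 3 nuclei with most UMIs moved the log2 ratio of Mmp27 in ASPC from 0.50 to 1.24 and of Adamts5 in myeloid nuclei from -0.47 to 0.87. The total without mitochondrial genes and Malat1 turned the sign of Adamts9 (-0.13) and Timp2 (-0.17) in ASPC, Adamts5 in adipocytes (-0.14) and Timp4 in endothelial nuclei (-0.06). TMM scaling moved each of 56 log2 ratios in ASPC, adipocytes and myeloid nuclei by less than its counting interval and turned the sign of Adamts10 in adipocytes (-0.02 to 0.02). The other alternatives turned further ratios near 1, Mmp2 in ASPC and Timp3, Adamts1 and Adamts10 in adipocytes among them. The split of adipocytes and of myeloid nuclei by library into separate clusters was not seen under anchor integration. No paired analysis was possible because each genotype had 1 library. Depth limits members under 50 UMIs.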
